A study of Mus musculus with 6 samples.

Results

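The large (60S) subunit of the cytosolic ribosome was followed through the footprints of the genes for its proteins, which are the protein-coding genes whose symbol begins with Rpl or Rplp and a digit. The deposited table held 57 such genes of 56748 genes in all, lying on 19 chromosomes. Each value is a number of ribosome footprints, the 24 to 36 nt pieces of mRNA left under ribosomes after a nuclease has cut away the rest, in Lin-c-Kit+ mouse cells (lineage-negative, Kit-positive cells, labelled as hematopoietic stem cells). All 6 libraries came from mice that had received 4.5 Gy of irradiation 12 days earlier, 3 from wild-type (WT) mice and 3 from mice labelled Mov10 KO, in which the gene of the RNA helicase Mov10 is knocked out. The strain, age and sex of the mice and the deleted part of Mov10 are not given in the labels, nor whether the 3 libraries of a genotype came from separate animals, and the p-values measure only the spread between these libraries, which may be technical.

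A ribosome is built from a small and a large subunit, and the large one joins amino acids at its peptidyl transferase centre, passes the new chain through an exit tunnel and recruits elongation factors with a flexible stalk. Cells make its proteins in matched amounts from single-copy genes whose mRNAs mostly begin with a run of pyrimidines, the terminal oligopyrimidine (TOP) motif, through which the mTOR pathway and proteins such as Larp1 set their translation. Blood formation is known to be sensitive to their loss, since mutations in RPL5, RPL11, RPL35A and RPL26 cause Diamond-Blackfan anemia, a failure of red cell production, and free Rpl5 and Rpl11 bind Mdm2 and stabilise p53.

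Levels are normalized reads, which are read counts divided by 1 size factor per library, and errors are the SD over the 3 libraries of a genotype. Since a gene with more mRNA also gives more footprints, and no mRNA levels were used here, a difference in footprints is not one in translation per mRNA. In a bulk library, fewer cells of a type and less RNA per cell cannot be told apart. Genes were called at an adjusted p under 0.05 in a limma fit over the 17114 genes that averaged 1 normalized read or more, and "higher" or "lower" refers to the knockout relative to WT. The WT libraries held 2260348 to 2499634 reads and the knockout libraries 1118345 to 1352517, so that 3 reads, the limit that a count of 0 allows, were 1.84 to 2.04 normalized reads in WT and 4.02 to 4.85 in the knockout. Mov10 itself had 110.4, 106 and 104 normalized reads in the WT libraries against 51.0, 89.0 and 46.3 in the knockout libraries, lower in all 3 but not called (adjusted p = 0.0598). Its adjusted p was 0.00747 without knockout replicate 2, 0.122 and 0.114 without knockout replicate 1 and 3, and 0.200, 0.190 and 0.184 without WT replicate 1, 2 and 3. It passed the threshold with TMM scaling (adjusted p = 0.0430), with library totals (0.0246), in limma-voom (0.0192), with a mean of at least 50 (0.0330) and at equal depth (0.0264). The whole-gene values do not show where the remaining Mov10 reads lie.

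Of the 57 genes, 54 had at least 1 read and 51 were tested in that fit. Rpl10l, the retrocopy of Rpl10 known from testis, and the pseudogene-like Rpl10-ps3 and Rplp2-ps1 had no read in any library. Rpl9-ps6 (0.649, 0 and 0.681 normalized reads in the WT libraries) and Rpl36a-ps1 (0, 0.614 and 0) had no read in the knockout and were below the filter on low values. Rpl27 was left out because its row can be read in opposite directions, and it is described separately. Apart from Rpl27, each gene with reads came out as whole reads in all 6 libraries (within 0.05 of a read).

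The knockout had lower footprint levels for many large subunit protein genes and higher levels for a few, so they did not move as a block. Of the 51 tested genes 18 were lower, 35.3% against 10.9% of all 17114 tested genes, and 6 were higher, 11.8% against 10.3% of all tested genes. 1 of these 6, Rpl36-ps4, was unread in WT and passed the filter only through the knockout, so without it 5 were higher. The other 27 were not called. The libraries of the genotypes did not overlap in 24 genes that were lower (47.1%) and 9 that were higher (17.6%). Rpl36-ps4 was 1 of these 9. Of all tested genes 22.9% were lower and 16.9% higher without overlap. The median log2 fold change of the 51 genes was -0.68, beside -0.17 for all tested genes, and 39 were negative and 12 positive. Each knockout library set against the WT mean gave a median of -0.66, -0.79 and -0.69, so all 3 knockout libraries lay on the same side. Among the 39 tested genes that averaged 50 normalized reads or more, 16 were lower and 4 higher, with the same median, while the 6307 genes of that abundance had a median of 0.0094 with 14.1% lower and 21.8% higher. Without WT replicate 1, 2 and 3 the lower genes numbered 12, 10 and 10, where 3.61%, 2.93% and 2.96% of all genes were lower, and the higher genes 4, 2 and 2, where 5.69%, 5.17% and 4.98% were higher. Without knockout replicate 1, 2 and 3 there were 19, 18 and 17 lower genes (14.8%, 14.5% and 15.1% of all genes) and 6, 7 and 6 higher genes (12.1%, 12% and 11.7% of all genes). The median was -0.89 with library totals and -0.49 with upper-quartile scaling, which also moved the median of all genes to -0.37 and to -0.00073.

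The same 11 genes were called, in 1 direction, under all 22 other settings tried, which changed the scaling, the filter, the test, the libraries used or the handling of pseudogenes and of Rpl27. They were Rpl9, Rpl12, Rpl13, Rpl14, Rpl27a, Rpl30, Rpl31, Rplp0 and Rplp2, all lower, and Rpl7 and Rpl17, both higher. The authors' deposited table, whose test is not stated, had adjusted p under 0.05 for 18 large subunit genes lower and 7 higher. The share of all genes called by that test was not counted, so these counts serve only to compare calls gene by gene. It shared 17 lower and 6 higher calls with limma, differing in Rpl19 and Rpl36 among the lower genes and in Rpl27 among the higher ones.

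**Figure D1:**
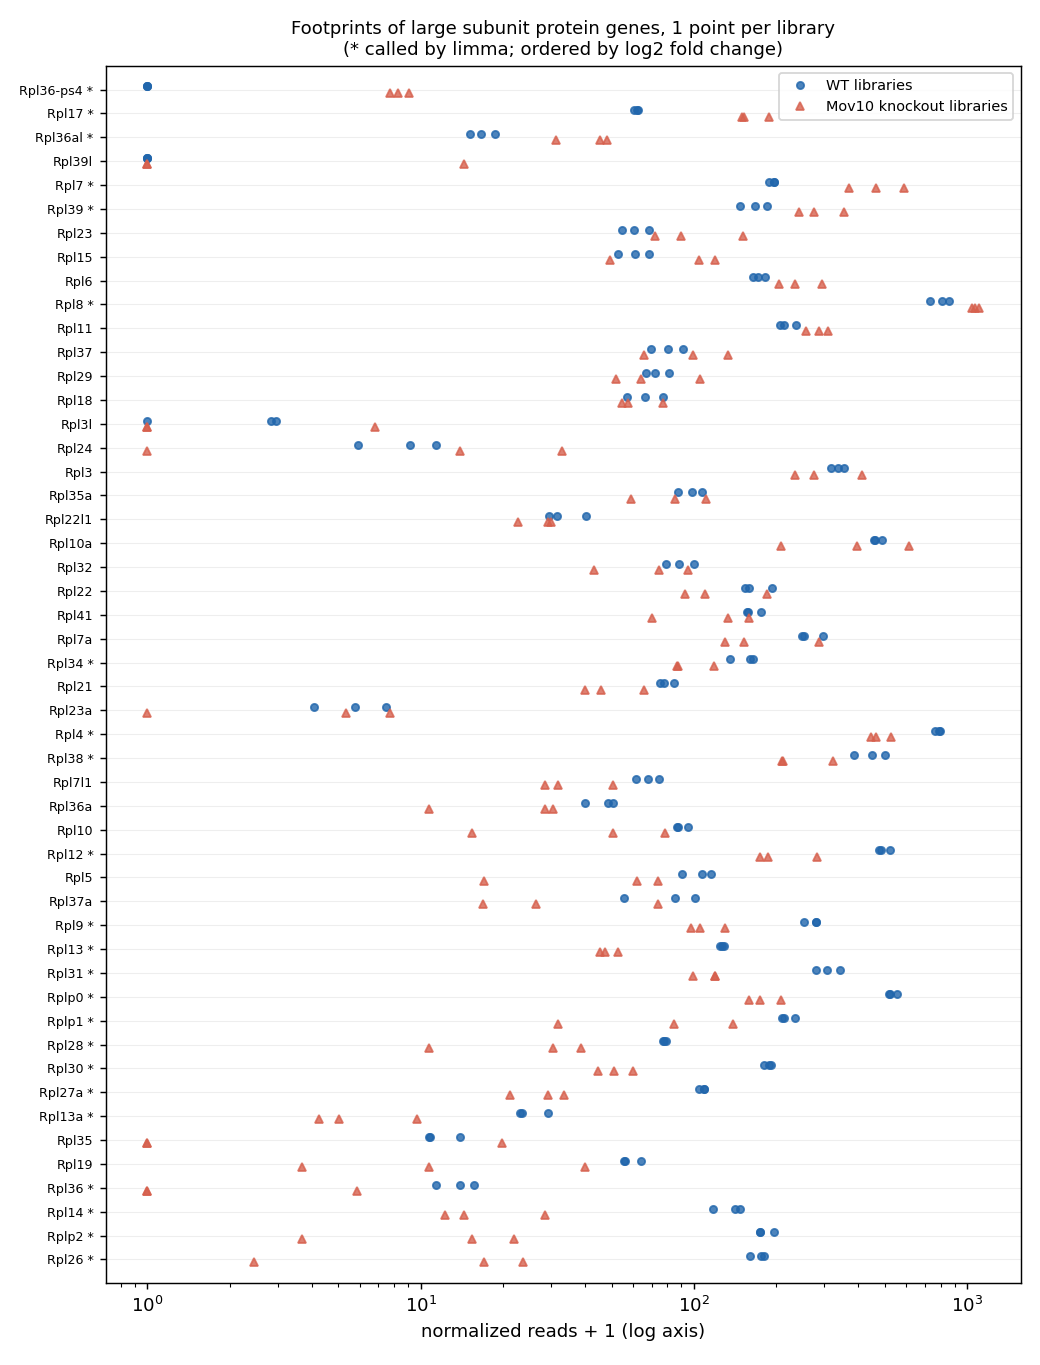
Normalized reads plus 1 (log axis) of the tested genes reported here, 1 point per library, with circles for the 3 WT and triangles for the 3 knockout libraries. Genes are ordered by log2 fold change and called genes carry a star, so the higher genes lie toward the top and the lower ones toward the bottom, where Rplp2 and Rpl26 show the widest gaps between the genotypes.

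The sequence feature that these genes are known for was searched in the promoter windows of RefSeq (GRCm38.p6), 250 bases before to 50 after each annotated start, which held 40 of the 57 genes. CTTTCC or CTTTTCC, pyrimidine cores of the TOP kind, lay on the coding strand in 25 of 40 genes (62.5%), beside 5265 of 27025 genes with a window (19.5%). It was found in 10 of 14 lower genes, 14 of 22 that were not called and 1 of 2 higher genes with a window, and whether these shares differ was not tested. The following windows of 30 bases are shown because they let the pyrimidine run be read in genes that were lower (the first 7), not called (Rpl35 and Rpl18) and higher (Rpl36al), with the core in capitals and the coding strand written 5′ to 3′.
Rpl38 (chr11:114668569-114668598, + strand): gaagcctcgttCTTTCCccgttctcttcgg
Rpl28 (chr7:4792956-4792985, + strand): ctcgtgtctctCTTTCCgtctccggccgcc
Rpl13a (chr7:45128718-45128747, - strand): aagacctcctcCTTTCCcaggcggctgccg
Rpl27a (chr7:109519187-109519216, + strand): tgagctcctccCTTTTCCctttctgccacc
Rpl26 (chr11:68901580-68901609, + strand): cgtgtagttctCTTTCCttttgcggccatc
Rpl34 (chr3:130730329-130730358, - strand): cccgccccttcCTTTTCCtcttccggggac
Rpl4 (chr9:64173359-64173388, + strand): aagtgacaagtCTTTCCttttcctgtggga
Rpl35 (chr2:39005118-39005147, - strand): tcggccccgccCTTTCCtctttctctcgaa
Rpl18 (chr7:45718063-45718092, + strand): cgcaggccgctCTTTCCccgcccactccgg
Rpl36al (chr12:69184018-69184047, - strand): tctgttcgtccCTTTCCtgttcggcgcgtg

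In Rpl38 the core begins at the annotated start itself, in Rpl28 2 bases and in Rpl27a and Rpl18 3 bases after it, and in Rpl34 10 bases before it. It lies 17 bases before the start in Rpl4, and 25 and 31 after it in Rpl26 and Rpl36al. Among the 25 genes it lies as far as 133 bases before the start in Rpl7l1, 121 before in Rplp0 and 43 after in Rpl10. The share of 62.5% therefore includes cores far from the annotated start. Annotated starts can lie some bases from the start used in a cell, so these distances do not say whether an mRNA begins with the run. The longest pyrimidine run in a window had a median of 11.5 bases in these genes and 9 over all genes with a window. CCGGAAGT, searched on both strands, lay in 17.5% of the large subunit genes and 4.31% of all genes, and GCCATNTTG, also on both strands, in 10% and 2.9%. TATAAA on the coding strand lay in 10% and 9.77%. A match is a description of these letters and not a site in use.

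The 4 genes of the stalk, which recruits and activates the elongation factors, all fell in the knockout, where 10.9% of all tested genes did. Rplp0, the scaffold of the stalk (chromosome 5, 115697526 to 115701786, GRCm39), had 520.0, 552 and 516 normalized reads in the WT libraries against 158, 207 and 174 in the knockout libraries. It fell 2.95-fold, from 529 ± 19.6 to 179.6 ± 24.9 (log2 fold change -1.56, SE 0.13, adjusted p = 0.000106), and every knockout library was far below every WT library. Rplp2, an acidic protein carried on that scaffold (chromosome 7, 141027283 to 141031498), had 196, 174 and 174 in WT against 2.68, 21.0 and 14.5 in the knockout, where the values rest on 2, 13 and 10 reads. Its mean went from 181 ± 12.7 to 12.7 ± 9.30. Rplp2 fell 14.3-fold (log2 fold change -4.08, SE 0.60, adjusted p = 0.00253). Rplp1, the partner with which Rplp2 forms a dimer, had 233, 209 and 213 in WT against 138, 30.7 and 83.9 in the knockout, so knockout replicate 1 lay nearest to WT. Its fall of 2.59-fold passed the threshold (log2 fold change -1.60, SE 0.46, adjusted p = 0.0385). It did not pass without WT replicate 1, 2 or 3 (adjusted p = 0.157, 0.142 and 0.142) and without knockout replicate 3 (adjusted p = 0.0895). Nor did it pass with upper-quartile scaling (adjusted p = 0.0579), a pseudocount of 0.1 (0.0592), no filter (0.0537) or no variance trend (0.117). Rpl12, which binds rRNA at the base of the stalk, had 475, 522 and 482 in WT against 282, 173 and 185 in the knockout. Rpl12 fell 2.31-fold (log2 fold change -1.24, SE 0.18, adjusted p = 0.00244).

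The dimer partners did not fall in proportion in every library. Rplp2 made up 45.7%, 45.4% and 44.9% of the summed Rplp1 and Rplp2 values in the WT libraries and 1.90%, 40.6% and 14.7% in the knockout libraries. Every knockout library was below every WT library, with knockout replicate 2 close to WT and the other knockout libraries far from it. An exact two-sided permutation test of this share gave p = 0.1, the smallest that 3 against 3 libraries (20 regroupings) allow. Adjusted over the 5 pairs of genes compared in this way p was 0.125, and the pairs were chosen after their values were seen.

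**Figure D2:**
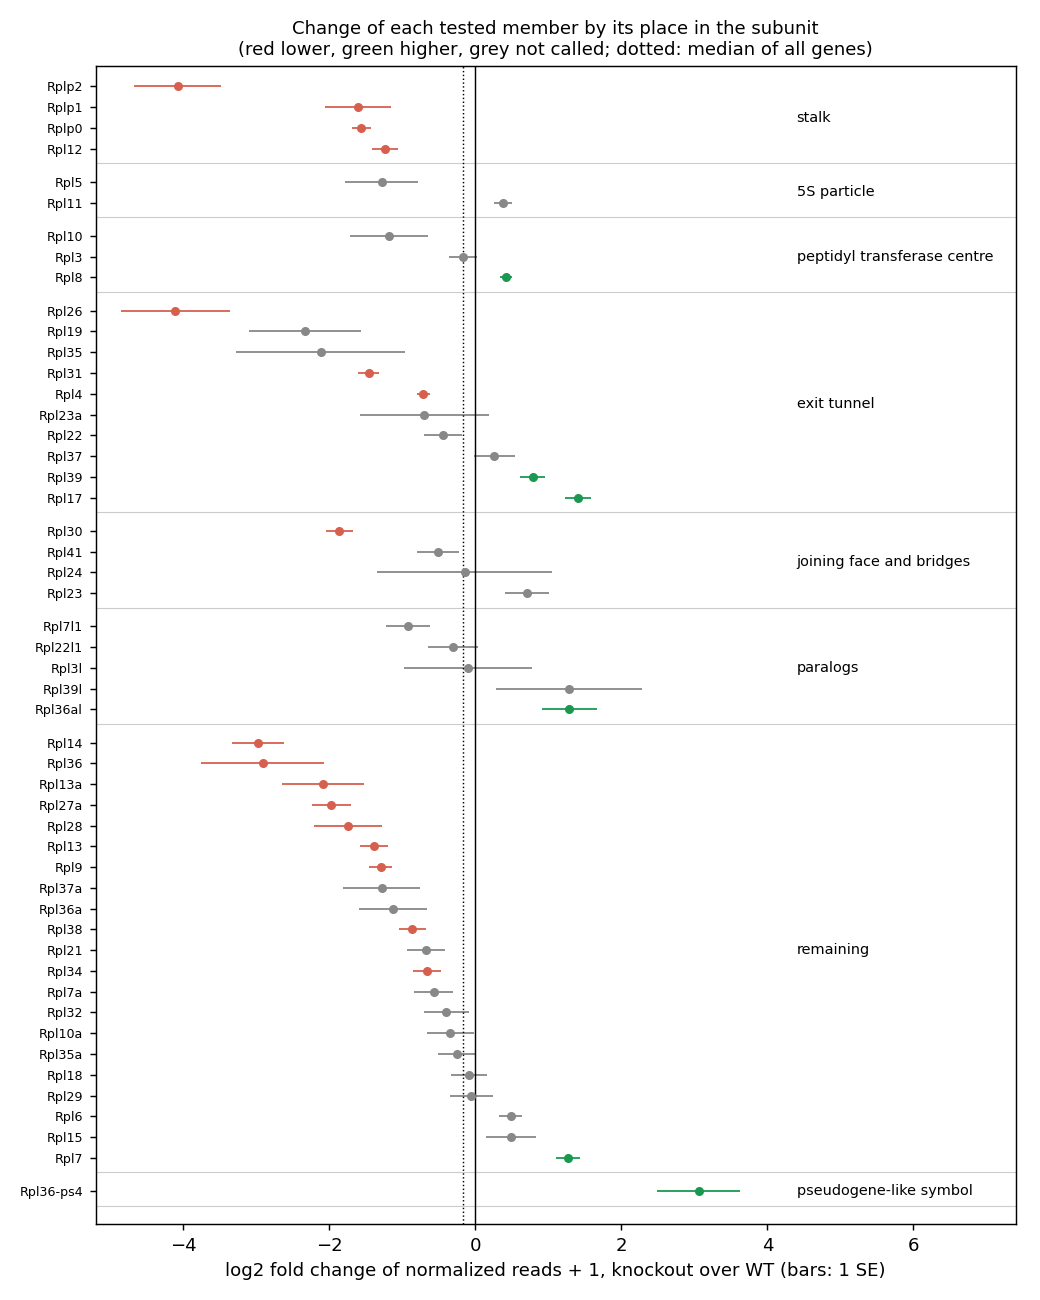
Log2 fold change of normalized reads plus 1, knockout over WT, for the tested genes reported here, grouped by place in the subunit, with bars of 1 SE. Points are red where called lower, green where called higher and grey otherwise, and the dotted line is the median of all tested genes. All 4 stalk genes lie left of 0, while the exit tunnel group reaches from -4.11 for Rpl26 to 1.40 for Rpl17.

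The 2 proteins that carry 5S rRNA into the subunit, Rpl5 and Rpl11, went opposite ways without being called. Rpl5 had 89.6, 115 and 106 normalized reads in WT against 16.1, 72.8 and 60.8 in the knockout (log2 fold change -1.28, SE 0.50, adjusted p = 0.108). Rpl11 had 235, 212 and 205 in WT against 308, 256 and 285 in the knockout (log2 fold change 0.38, SE 0.13, adjusted p = 0.0691). In both genes the genotypes did not overlap, with Rpl5 below WT and Rpl11 above it, as was so for 22.9% and 16.9% of all tested genes. Rpl5 passed the threshold in limma-voom (adjusted p = 0.0152) and with a mean of at least 50 (0.0497). Rpl11 passed it in edgeR (adjusted p = 0.0443), in limma-voom (0.0252), with a mean of at least 50 (0.0437) and with upper-quartile scaling (0.0138) and also without knockout replicate 2 (adjusted p = 0.0322). Rpl11 made up 72.4%, 64.9% and 65.9% of the summed values of both genes in WT against 95.0%, 77.8% and 82.4% in the knockout, without overlap (exact two-sided permutation p = 0.1, the smallest possible, and 0.125 adjusted over the 5 pairs compared).

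Around the peptidyl transferase centre, where peptide bonds form, 1 of 3 genes rose and none fell, beside 10.3% and 10.9% of all tested genes. Rpl8, the gene with the highest mean over the 6 libraries among all 57, had 858, 733 and 809.5 in the WT libraries against 1073, 1105 and 1040.4 in the knockout libraries (chromosome 15, 76788278 to 76790514, GRCm39). It rose 1.34-fold (log2 fold change 0.42, SE 0.08, adjusted p = 0.00864), the smallest change among the 24 called genes. It was not called with library totals (adjusted p = 0.109), without a variance trend (0.188) or without WT replicate 2 or 3 (adjusted p = 0.0518 and 0.0565). Rpl3, which reaches toward the centre, had 317, 336 and 352 in WT against 410.4, 275 and 234 in the knockout, which overlapped (adjusted p = 0.579, and 0.0462 without knockout replicate 1, which was its highest library). Rpl10, which completes the centre late in assembly, had 85.7, 93.9 and 86.5 in WT against 49.6, 77.6 and 14.5 in the knockout, below WT in all 3 libraries but scattered and not called (adjusted p = 0.153). It passed the threshold in limma-voom (adjusted p = 0.0284).

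Genes of the exit tunnel, through which the new chain leaves, included the most negative log2 fold change, of Rpl26, and the rises of Rpl17 and Rpl39. Of the 10 tunnel genes 3 were lower and 2 higher, beside 10.9% and 10.3% of all tested genes. Rpl26, at the rim of the tunnel and known to bind Trp53 mRNA (chromosome 11, 68792409 to 68797815, GRCm39), had 175, 159.6 and 179 normalized reads in WT against 16.1, 22.6 and 1.45 in the knockout, from 12, 14 and 1 reads. Its mean fell 12.8-fold, from 171 ± 10.3 to 13.4 ± 10.9 (log2 fold change -4.11, SE 0.75, adjusted p = 0.00696). The call was lost without WT replicate 1, 2 or 3 (adjusted p = 0.0546, 0.0533 and 0.0561). Rpl31, another rim protein, had 342, 279 and 307 in WT against 97.9, 118 and 119 in the knockout. Rpl31 fell 2.77-fold, with little scatter in either genotype (log2 fold change -1.46, SE 0.15, adjusted p = 0.000367). Rpl4, whose long loop lines the tunnel, had 787, 796 and 764 in WT against 463, 445 and 525 in the knockout. Rpl4 fell 1.64-fold (log2 fold change -0.71, SE 0.09, adjusted p = 0.00124). Among the other settings only the one without a variance trend lost the call (adjusted p = 0.0565).

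Rpl17, which meets Rpl4 at the narrowest point of the tunnel, moved the other way, with 61.7, 60.8 and 59.3 in the WT libraries against 152, 149 and 188 in the knockout libraries. It rose 2.69-fold (log2 fold change 1.40, SE 0.18, adjusted p = 0.00130), and the lowest knockout library held over 2 times the highest WT value. Rpl39, a small protein of the tunnel wall, had 146, 185 and 166 in WT against 241, 353 and 273 in the knockout. Rpl39 rose 1.75-fold (log2 fold change 0.79, SE 0.17, adjusted p = 0.0145). Its call was lost without a variance trend (adjusted p = 0.0804) and without WT replicate 1, 2 or 3 (adjusted p = 0.0747, 0.0510 and 0.0722). The tunnel genes Rpl19, Rpl22, Rpl23a, Rpl35 and Rpl37 were not called, with adjusted p from 0.0627 for Rpl19 to 0.618 for Rpl23a. Rpl19 had 54.5, 63.2 and 55.2 in WT against 2.68, 9.70 and 39.1 in the knockout, below WT in all 3 libraries. It passed the threshold in DESeq2 (adjusted p = 0.0368), with library totals (0.0404) and in limma-voom (0.0146), and without knockout replicate 3, its highest library (0.0118). Rpl23a and Rpl35, where the signal recognition particle docks, rested on few reads. Rpl23a had 6.49, 3.07 and 4.77 normalized reads in WT against 6.71, 0 and 4.34 in the knockout, and Rpl35 had 9.74, 9.82 and 12.9 in WT against 18.8, 0 and 0 in the knockout. Rpl35 passed the threshold without knockout replicate 1 (adjusted p = 0.00790), its only knockout library with reads, and Rpl22 without knockout replicate 1 (adjusted p = 0.0238).

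On the face that joins the small subunit, 1 of 4 genes was lower, beside 10.9% of all tested genes. Rpl30, which also binds its own transcript in yeast, had 190.2, 179.8 and 188 normalized reads in WT against 59.0, 50.1 and 43.4 in the knockout. Rpl30 fell 3.66-fold (log2 fold change -1.86, SE 0.19, adjusted p = 0.000352). Rpl41, a very short protein in a bridge between the subunits, had 156, 156 and 174 in WT against 133, 159 and 69.5 in the knockout. Rpl24 had 10.4, 4.91 and 8.18 in WT against 0, 12.9 and 31.8 in the knockout, and both genes overlapped between the genotypes. Rpl23 had 67.5, 53.4 and 59.3 in WT against 88.5, 71.2 and 150.5 in the knockout, above WT in all 3 libraries but not called (adjusted p = 0.128). It passed the threshold in limma-voom (adjusted p = 0.0360).

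A further 10 genes fell and 1 rose among the 22 tested genes with no place in these groups. Of all tested genes 10.9% were lower and 10.3% higher. Rpl7, an RNA-binding protein of the subunit surface (chromosome 1, 16171519 to 16174886, GRCm39), had 195, 187 and 195 normalized reads in the WT libraries against 370.1, 464 and 586 in the knockout libraries. It rose 2.46-fold, from 192 ± 4.42 to 473 ± 108 (log2 fold change 1.27, SE 0.17, adjusted p = 0.00135), with WT libraries almost equal and no knockout library near them. Rpl14, a neighbour of Rpl6 in the subunit, had 117, 147 and 140.4 in WT against 13.4, 11.3 and 27.5 in the knockout. Rpl14 fell 7.73-fold (log2 fold change -2.98, SE 0.36, adjusted p = 0.000902). Rpl27a had 104, 108 and 108 in WT against 28.2, 32.4 and 20.3 in the knockout. Rpl27a fell 3.96-fold (adjusted p = 0.00154). Rpl13 had 126, 123 and 128 in WT against 44.3, 51.8 and 46.3 in the knockout. Rpl13 fell 2.65-fold (adjusted p = 0.00187). Rpl9 had 251, 279 and 279 in WT against 129, 97.0 and 104 in the knockout. Rpl9 fell 2.45-fold (adjusted p = 0.000887). In these 4 lower genes every knockout library was below every WT library, and the scatter within a genotype was small beside the gap.

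The other falls in this group were less firm. Rpl38, known in mice for its part in patterning the axial skeleton, had 386, 501 and 446 normalized reads in WT against 212, 209 and 323 in the knockout. Rpl38 fell 1.79-fold (adjusted p = 0.0137). It was not called without WT replicate 2 or 3 (adjusted p = 0.0843 and 0.0777) and without knockout replicate 1 or 2 (adjusted p = 0.0505 and 0.0524) or without a variance trend (0.0840). Rpl28 had 76.0, 76.7 and 78.4 in WT against 29.5, 9.70 and 37.6 in the knockout. Rpl28 fell 3.01-fold (adjusted p = 0.0321). This call too was lost without WT replicate 1, 2 or 3 (adjusted p = 0.130, 0.135 and 0.135) and without knockout replicate 1 (adjusted p = 0.0509) and without a variance trend (0.0764). Rpl13a, also known for silencing inflammatory mRNAs after interferon, had 22.1, 28.2 and 22.5 in WT against 4.02, 3.23 and 8.68 in the knockout, from 3, 2 and 6 reads. Rpl13a fell 4.57-fold (adjusted p = 0.0321). Its call was lost without WT replicate 1, 2 or 3 (adjusted p = 0.130, 0.171 and 0.140). It was also lost in limma-voom (adjusted p = 0.0609) and at equal depth (0.107). Rpl34 had 135, 164 and 159 in WT against 118, 85.7 and 86.8 in the knockout. Rpl34 fell 1.58-fold (adjusted p = 0.0407). It was not called without WT replicate 1, 2 or 3 (adjusted p = 0.0873, 0.167 and 0.160) and without knockout replicate 2 or 3 (adjusted p = 0.0690 and 0.0677). Nor was it called with no filter (adjusted p = 0.0683), without a variance trend (0.113), at equal depth (0.0502) and with upper-quartile scaling (0.126).

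The 11 genes of this group that were not called were Rpl6, Rpl7a, Rpl10a, Rpl15, Rpl18, Rpl21, Rpl29, Rpl32, Rpl35a, Rpl36a and Rpl37a. Their adjusted p ran from 0.0655 for Rpl6 to 0.914 for Rpl29. Rpl21 and Rpl36a were below WT, and Rpl6 above it, in all 3 knockout libraries, as were 22.9% and 16.9% of all tested genes. Rpl6 had 182, 171 and 164 in WT against 204, 233 and 294 in the knockout. It passed the threshold without knockout replicate 1 (adjusted p = 0.0274), in edgeR (adjusted p = 0.0348), in limma-voom (0.0192), with a mean of at least 50 (0.0355) and with upper-quartile scaling (0.0161). Without knockout replicate 2, Rpl15 was higher and Rpl21 and Rpl37a lower (adjusted p = 0.0226, 0.0199 and 0.0194), and without knockout replicate 3 Rpl7a was lower (0.00994). Rpl21 also passed with library totals (adjusted p = 0.0369), and Rpl37a in limma-voom (adjusted p = 0.0361). Rpl10a, known for its place in ribosomes that translate particular mRNAs, had the widest spread of knockout values, with an SD of 202 normalized reads. Its WT libraries held 456, 461 and 486 and its knockout libraries 612, 396 and 207 normalized reads, 1 above and 2 below all WT libraries. The log2 fold change was -0.34, and 0.07 without knockout replicate 3.

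Several genes have a paralog or a copy that is itself listed, and in 2 such pairs the shares of the copies did not overlap between the genotypes. Rpl36al, an intronless copy of Rpl36a that encodes nearly the same protein, had 15.6, 14.1 and 17.7 normalized reads in WT against 44.3, 46.9 and 30.4 in the knockout. Rpl36al rose 2.56-fold (log2 fold change 1.29, SE 0.37, adjusted p = 0.0422). The call was lost without WT replicate 1, 2 or 3 (adjusted p = 0.134, 0.151 and 0.119) and without knockout replicate 1 or 2 (adjusted p = 0.0512 and 0.0523). It was also lost with TMM scaling (adjusted p = 0.0516), with library totals (0.0715), with no filter (0.0587) and at equal depth (0.0664). Rpl36a had 47.4, 49.7 and 38.8 in WT against 29.5, 9.70 and 27.5 in the knockout and was not called (adjusted p = 0.122). Rpl36al made up 24.7%, 22.1% and 31.3% of the pair in the WT libraries and 60%, 82.9% and 52.5% in the knockout libraries, with no overlap (exact two-sided permutation p = 0.1, the smallest possible, 0.125 adjusted). The copies are so alike that short reads may be shared between them, in a way that depends on counting rules not given in the sources used here.

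The other such pair was Rpl36 and Rpl36-ps4, a pseudogene-like copy listed as protein coding. Rpl36, counted above among the 10 lower genes with no place in a group, had 10.4, 14.7 and 12.9 normalized reads in the WT libraries against 0, 4.85 and 0 in the knockout libraries, from 16, 24 and 19 and from 0, 3 and 0 reads. Rpl36 fell 7.84-fold (adjusted p = 0.0411). Rpl36-ps4 was unread in WT, with 6.71, 8.09 and 7.24 normalized reads in the knockout libraries, 5 reads in each. It was at least 3.59-fold higher against a floor of 3 reads per WT library. Since Rpl36-ps4 passed the filter on low values only through the knockout, its p is not given as support. Its call is still counted among the 6 higher genes and among the 6 higher calls shared with the authors. The share of Rpl36-ps4 in this pair was 0 in each WT library because it was unread there, and the lack of overlap rests on that. With the reads of Rpl36 summed with those of its named pseudogenes, the log2 fold change went from -2.91 to -0.83 and Rpl36 was not called (adjusted p = 0.309). Rpl36 also lost its call without WT replicate 1, 2 or 3 (adjusted p = 0.126, 0.158 and 0.148) and without knockout replicate 1 or 3 (adjusted p = 0.0864 and 0.0866), in DESeq2 (0.0749) and edgeR (0.0508), with a pseudocount of 0.1 (0.0764), no filter (0.0703), no variance trend (0.0548) and upper-quartile scaling (0.0536). With Rpl36-ps4 at its bound and Rpl39l, also unread in WT, left out, the median over the tested genes was -0.69.

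Paralogs with a restricted expression in the body were read rarely. Rpl3l, the form known from muscle, had 1.95, 1.84 and 0 normalized reads in WT against 0, 0 and 5.79 in the knockout. Rpl39l, known from testis, had none in WT against 13.4, 0 and 0 in the knockout, 10 reads in 1 library. Rpl22l1, which can stand in for Rpl22, had 28.6, 39.3 and 30.7 in WT against 28.2, 29.1 and 21.7 in the knockout. Rpl22, known for T cell development, had 153, 191 and 159 in WT against 184, 92.2 and 109 in the knockout, and neither was called (adjusted p = 0.570 and 0.260). Rpl22l1 made up 15.7%, 17.0% and 16.2% of that pair in WT against 13.3%, 24.0% and 16.7% in the knockout, which overlapped (exact two-sided permutation p = 0.8). Rpl7l1, a relative of Rpl7 with a part in ribosome assembly, had 73.4, 66.9 and 60.6 in WT against 49.6, 30.7 and 27.5 in the knockout, below WT in all 3 libraries and not called (adjusted p = 0.0621). It passed without knockout replicate 1 (adjusted p = 0.0138), with TMM scaling (adjusted p = 0.0457), with library totals (0.0273), in limma-voom (0.0467) and with a mean of at least 50 (0.0446). Rpl7 itself rose, so the 2 relatives lay on opposite sides of their WT levels.

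Rpl27 can be read in 2 ways in the deposited table, which give opposite directions. As headed, its row holds 32.2, 51.8 and 33.3 normalized reads for WT and 96.7, 67.5 and 68.8 for the knockout. That reading makes Rpl27 1.99-fold higher in the knockout (log2 fold change 0.99, SE 0.29, adjusted p = 0.0449). With the genotypes of the row exchanged it is lower by the same factor with the same adjusted p. Taken in units of 1 read of its own library, the row gives 49.6, 84.3 and 48.8 reads for WT and 72.1, 41.7 and 47.6 for the knockout, which are not whole numbers. In units of 1 read of the library with that number from the opposite genotype, it gives 24.0, 32.0 and 23.0 and 149, 110 and 101, which are whole. Rps29, Camp, Igkc and Ssr4 were the other rows of this kind among 28136 genes with reads. The authors' deposited table gives Rpl27 a log2 fold change of 0.298, which equals the log10 of the ratio of its deposited means. For 26 other large subunit genes (a mean of at least 50 normalized reads and a log2 ratio of at least 0.5 either way) the deposited log2 fold change was 0.879 to 0.991 of the log2 ratio, and for Rpl27 it was 0.301 of it. Nothing in the table settles the reading.

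**Figure D3:**
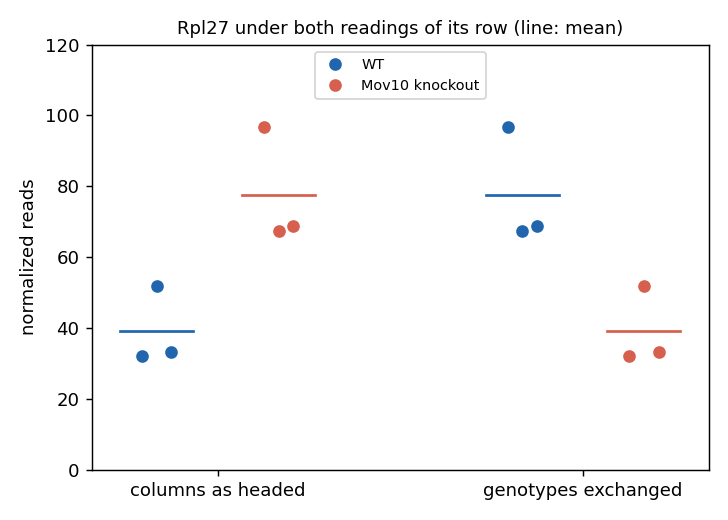
Normalized reads of Rpl27 in each library with the columns as headed and with the genotypes of its row exchanged, with lines at the means. The 3 values of one genotype lie between 32.2 and 51.8 and those of the other between 67.5 and 96.7, without overlap, and the readings differ only in which genotype is the higher one.

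Summed over the subunit, the share of all reads that fell on large subunit protein genes (Rpl27 left out) was 0.540%, 0.561% and 0.558% in the WT libraries and 0.362%, 0.341% and 0.355% in the knockout libraries. The means were 0.553% ± 0.0110 and 0.353% ± 0.0107, and no knockout library came near a WT library. By construction the called genes carry the contrast, with 0.286% ± 0.00871 and 0.0980% ± 0.00835 for the 18 lower genes and 0.0799% ± 0.00259 and 0.113% ± 0.00758 for the 6 higher ones. The 27 genes that were not called also held less in the knockout, 0.142% ± 0.0117 against 0.187% ± 0.00496 in WT. Shares of all reads are scaled by library totals, and with that scaling the typical gene in the fit was lower too (median -0.37 in log2 units). Whether the 27 genes fell by more than this background was not tested. For small subunit protein genes, taken by symbol (Rps29 left out), the share was 0.537% ± 0.00413 in WT and 0.455% ± 0.00824 in the knockout. Both subunits thus had near-equal shares in WT and the large one the smaller share in the knockout. The sum over chosen genes was given no test.

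**Figure D4:**
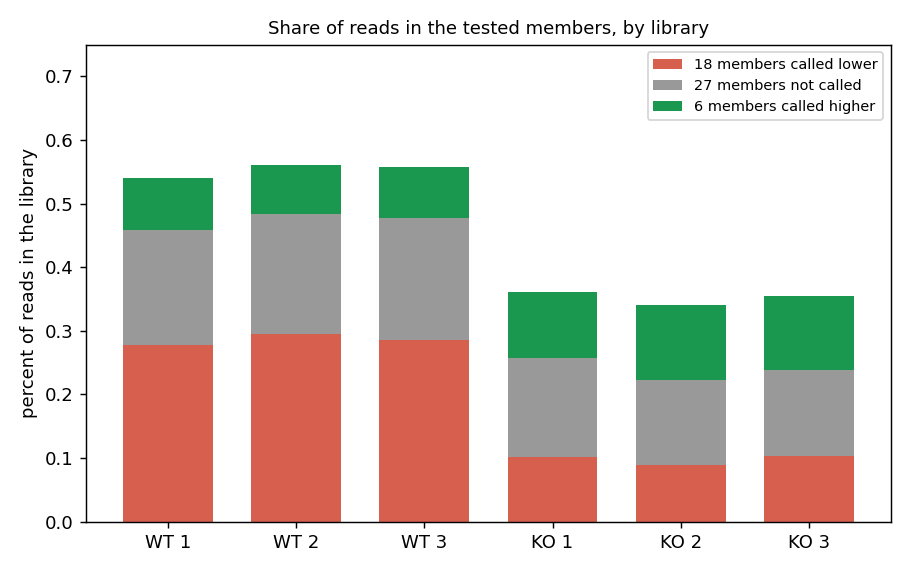
Percent of reads in each library on the 51 tested large subunit genes, stacked by whether limma called a gene lower (red), not called (grey) or higher (green). The bars start at 0, and the red part spans 0.278% to 0.295% in WT and 0.0883% to 0.103% in the knockout.

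The spread among knockout libraries was wider than among WT libraries. The coefficient of variation had a median of 7.02% in WT and 31.2% in the knockout over the same 39 better-read genes, and it was larger in the knockout in 47 of 51 tested genes. All tested genes also varied more in the knockout, so this spread was not particular to the subunit. Variance between libraries over that of counting alone was larger in the knockout in 38 of 44 large subunit genes with enough reads. The same held for 7998 of 10080 of all genes. Its medians in WT and knockout were 1.15 and 6.06 for large subunit genes and 1.15 and 4.72 for all genes. Across the 51 genes, Pearson correlations of log2 values were 0.990 to 0.992 between WT libraries, 0.794 to 0.875 between knockout libraries and 0.722 to 0.817 between the genotypes. These correlations are across genes, which are not independent replicates, and the knockout libraries also had fewer reads. The 5 most read genes held 35.6 to 36.7% of large subunit reads in WT against 42.8 to 44.8% in the knockout. Rpl8 and Rpl4 were among these 5 in all 6 libraries, Rplp0 in the 3 WT libraries and in no knockout library, and Rpl7 in the 3 knockout libraries and in no WT library.

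Per kb of gene length as listed in the table, footprints differed widely between proteins that the subunit holds in 1 copy each (the stalk dimers apart). Rpl38 was the highest in WT with 820.0 ± 106 normalized reads per kb, followed by Rpl8 with 589 ± 46.6 and Rplp1 with 438 ± 25.5. In the knockout Rpl8 came first with 789 ± 23.7, ahead of Rpl38 with 457 ± 119.8 and Rpl4 with 238 ± 21.1. The gaps from the first to the second gene were wider than the sum of both SDs in either genotype. The median over the 51 tested genes was 56.4 normalized reads per kb in WT and 29.9 in the knockout. The 3 lowest of the genes with reads in WT were Rpl3l with 0.769, Rpl9-ps6 with 0.621 and Rpl36a-ps1 with 0.456 normalized reads per kb, and the lowest without a paralog or pseudogene symbol was Rpl23a with 5.64 ± 2.02. The listed length is not that of the coding sequence. It holds untranslated parts, where footprints are few, and in some genes nearly the whole gene. It was 3598 bases for Rpl12, at 32851571 to 32855357 on chromosome 2. For Rpl38, at 114559350 to 114563157 on chromosome 11, it was only 542 bases. The order is therefore not one of coding sequences, and how far it follows the listed lengths was not tested. Rpl26 went from rank 11 to 44, Rplp2 from 17 to 45, Rpl14 from 18 to 41, Rpl17 from 30 to 8 and Rpl7 from 20 to 5.

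**Figure D5:**
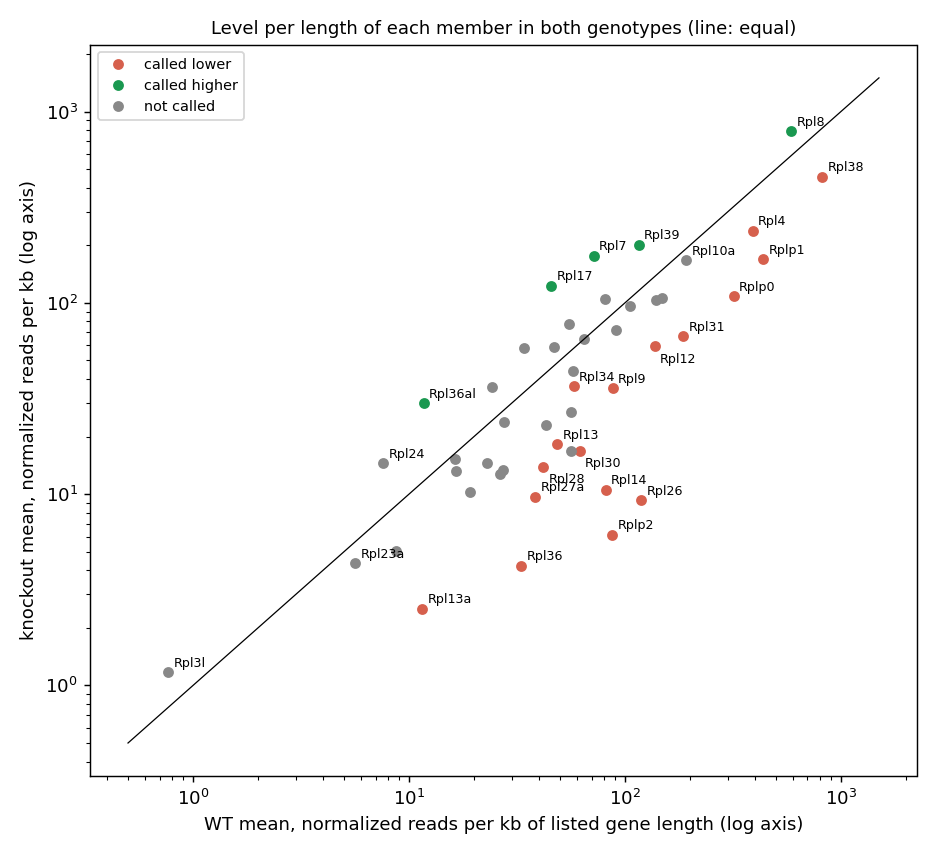
Mean normalized reads per kb of listed gene length in WT (x) and in the knockout (y), both on log axes, 1 point per tested gene reported here with reads in both genotypes, and a line where both are equal. Red points (called lower) lie below the line and green points (called higher) above it, and Rpl26, Rplp2, Rpl14 and Rpl36 lie farthest below.

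Ribosomal protein genes are known to carry small nucleolar RNAs in their introns and to have many processed pseudogenes, and both bear on how reads are assigned. A listed snoRNA lay inside 20 of the 51 tested genes, 8 of 18 lower, 2 of 6 higher and 10 of 27 not called. Most had no or few reads, but Gm23136 inside Rpl4 had a mean of 223 normalized reads in WT against 4.13 in the knockout, and Gm23301 inside Rpl17 had 38.4 in WT and none in the knockout, while Rpl17 itself rose. The number of pseudogenes named after a gene had a median of 2.5 for lower, 0.5 for higher and 1 for other tested genes. Its Spearman correlation with the log2 fold change was -0.378 across the 51 genes, which share all libraries. All pseudogenes named after Rpl genes together held 0.00523% ± 0.000628 of reads in WT and 0.00396% ± 0.000565 in the knockout. Summing each gene with its named pseudogenes kept 17 lower and 6 higher calls, losing Rpl36. Pseudogenes named in other ways were not counted here, and whether reads shared with them were dropped or split was not tested. The log2 fold change had a Spearman correlation of -0.0319 with the listed length over the same genes.

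Among genes that help to build and export the large subunit, the share that was higher lay near that of equally well-read genes, and 1 gene was lower. Of 40 tested factors for 60S assembly and export 10 were higher (25%) and 1 lower (2.5%), with a median log2 fold change of 0.21. Over all 17114 tested genes 10.3% were higher and 10.9% lower, and over those that averaged 50 normalized reads or more 21.8% and 14.1%. Of the 40 factors 34 reached that mean. The assembly factor Las1l rose from 201 ± 7.90 to 477 ± 28.7 normalized reads (adjusted p = 0.000139). The nucleolar GTPase Gnl3, nucleostemin, rose from 350.3 ± 29.4 to 895 ± 128 (adjusted p = 0.000220). Brix1 rose from 133 ± 14.6 to 354 ± 32.9 and the rRNA methyltransferase Ftsj3 from 323 ± 21.0 to 608 ± 70.4, and these 4 were called under all 22 other settings. Tma16, a late assembly factor, fell from 109.6 ± 6.27 to 42.1 ± 21.1 (adjusted p = 0.0330) but was not called without WT replicate 1, 2 or 3 (adjusted p = 0.124, 0.144 and 0.129) or without a variance trend (0.0894). The counts were 5, 4 and 6 higher and none lower without WT replicate 1, 2 and 3 (5.69%, 5.17% and 4.98% of all genes higher), and 5 higher and none lower without a variance trend (6.97% of all genes higher). Library totals gave 6 higher and 3 lower (7.48% and 16.7% of all genes) and moved the median of the list to -0.020.

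Among other RNAs with a TOP motif 7 of 23 were higher (30.4%) and 2 lower (8.7%), with a median of 0.082. The list includes the noncoding RNAs Gas5, which was not called, and Snhg1, which is among the 7 higher (adjusted p = 0.00275). Of all tested genes 10.3% were higher and 10.9% lower. Of those that averaged 50 normalized reads or more, as did 21 of the 23, 21.8% were higher and 14.1% lower. Eif3e, an initiation factor subunit, rose from 565 ± 8.04 to 1766 ± 218 normalized reads. Eef1a1, which delivers tRNA to the ribosome, rose from 1468 ± 104 to 2681 ± 149, and Eif3f from 449.9 ± 13.8 to 801 ± 86.6. Adjusted p was 2.23e-05 for Eif3e, 0.000113 for Eef1a1 and 0.000964 for Eif3f. Rack1, a scaffold protein bound to the small subunit, fell from 1423 ± 60.1 to 589.8 ± 119 (adjusted p = 0.000350). The splicing factor Hnrnpa1 fell from 715 ± 20.1 to 483 ± 27.7 (adjusted p = 0.00279, and 0.0938 without a variance trend). With library totals 6 were higher and 6 lower (7.48% and 16.7% of all genes), and the list's median was -0.15, with TMM scaling -0.0093 and without knockout replicate 3 -0.0076.

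Of 14 genes that regulate TOP mRNAs, none was higher and 5 were lower (35.7%), with a median of -0.51. Of all tested genes 10.3% were higher and 10.9% lower. Of those that averaged 50 normalized reads or more, as did 13 of the 14, 21.8% were higher and 14.1% lower. The RNA-binding protein Tial1 fell from 236 ± 17.1 to 100.5 ± 12.9 normalized reads (adjusted p = 0.00133). Cnbp fell from 755 ± 35.2 to 445 ± 67.0 (adjusted p = 0.00359), and Tia1, a relative of Tial1, from 354 ± 37.1 to 122 ± 45.2 (adjusted p = 0.00547). The kinase Rps6kb1 fell from 179 ± 10.9 to 72.0 ± 17.5 (adjusted p = 0.00431). Larp1, Mtor and Eif4ebp1 were not called (adjusted p = 0.0588, 0.620 and 0.0651). Tia1 was not called without WT replicate 3 (adjusted p = 0.0501) and Cnbp without a variance trend (adjusted p = 0.0632). Rptor, a subunit of the mTOR complex, was the fifth lower gene (adjusted p = 0.0320) and was not called without WT replicate 1, 2 or 3 (adjusted p = 0.0692, 0.139 and 0.144) and without knockout replicate 1 (adjusted p = 0.0611). Nor was it called with no filter (adjusted p = 0.0510), without a variance trend (0.132), at equal depth (0.0502) and with upper-quartile scaling (0.130). The list had 3 lower genes without WT replicate 3 and without a variance trend (2.96% and 8.64% of all genes), 8 with library totals and in limma-voom (16.7% and 15.6%), and 6 in DESeq2 (9.55%). It had 1 higher gene in DESeq2, edgeR and limma-voom (12.4%, 16.5% and 18.3% of all genes they tested), with upper-quartile scaling (13.2%) and without knockout replicate 2. Of 7 tested genes of the p53 response to free 5S particles none was higher and 2 were lower, where 10.3% of all tested genes were higher and 10.9% lower. Mdm4, which restrains p53, fell from 429 ± 23.4 to 279 ± 71.8 (adjusted p = 0.0301). It was not called without WT replicate 1, 2 or 3 (adjusted p = 0.111, 0.138 and 0.108) and without knockout replicate 1 or 3 (adjusted p = 0.0876 and 0.0852). Nor was it called without a variance trend (adjusted p = 0.145) and with upper-quartile scaling (0.127). The p53 target Cdkn1a fell from 5.86 ± 0.952 to 0.539 ± 0.934 (adjusted p = 0.0391), with at most 1 read in a knockout library. It was not called without WT replicate 1, 2 or 3 (adjusted p = 0.110, 0.106 and 0.123) and without knockout replicate 1 or 3 (adjusted p = 0.0555 and 0.0552). Nor was it called in DESeq2 (adjusted p = 0.159), with no filter (0.0762), with a pseudocount of 0.1 (0.0638) and at equal depth (0.0526). No gene of this list was lower without WT replicate 1, 2 or 3 or without knockout replicate 1 or 3, and 1 was higher without knockout replicate 3. Mdm2 and Trp53 were not called (adjusted p = 0.199 and 0.853).

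The genes of the small subunit, taken by symbol, gave 9 lower (28.1%) and 6 higher (18.8%) of 32 tested genes, beside 10.9% and 10.3% of all tested genes. The symbols were Rps and a digit, or Rpsa, without the Rps6k kinases. They take in Rps19bp1, a binding partner of Rps19 that was not called, and leave out Fau. Of the genes that averaged 50 normalized reads or more, as did 27 of the 32, 14.1% were lower and 21.8% higher. Their median of -0.38 lay between those of the large subunit genes and of all genes. Rps3a1 fell from 189.6 ± 3.83 to 47.6 ± 14.0 normalized reads (adjusted p = 0.000681). Rps4x rose from 284 ± 36.4 to 511 ± 7.78 (adjusted p = 0.00165) and Rps23 from 102 ± 5.14 to 218 ± 32.3 (adjusted p = 0.00280). Rps20, Rps14 and Rps18 were also higher. Rps14 was not called without WT replicate 2 (adjusted p = 0.0569) or without a variance trend (adjusted p = 0.0850), nor Rps20 without a variance trend (adjusted p = 0.0698). Rps18 was not called without WT replicate 1, 2 or 3 (adjusted p = 0.117, 0.137 and 0.164) and without knockout replicate 1 or 3 (adjusted p = 0.0728 and 0.0727). Nor was it called with TMM scaling (adjusted p = 0.0864), with library totals (0.241), with no filter (0.0741), without a variance trend (0.184) and at equal depth (0.0665). Without WT replicate 1, 2 and 3 the counts were 2, 3 and 2 lower (3.61%, 2.93% and 2.96% of all genes) and 5, 4 and 5 higher (5.69%, 5.17% and 4.98%). There were 6 lower and 6 higher with upper-quartile scaling (7.86% and 13.2% of all genes), and 5 lower and 3 higher without a variance trend (8.64% and 6.97%). Whether the subunits differ from each other was not tested.

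Genes that mark other cell types also differed between the libraries, and their part in the results on the subunit was not tested. Kit, the marker of the gate, had 1099 ± 15.8 normalized reads in WT against 1122 ± 35.7 in the knockout, and the early progenitor genes Cd34, Flt3 and Gata2 were not called (means of 99.5, 208 and 61.5 in WT). Genes of mature cells, which a lineage gate would remove, were read as well. The summed level of 6 progenitor genes was 14817 to 17657 normalized reads in WT against 32363 to 33403 in the knockout, led by Mpo, a granule enzyme gene of granulocyte precursors, with 2 genes higher. The 6 erythroid genes summed to 549 to 584 normalized reads in WT against 1599 to 1676 in the knockout (3 higher, 1 lower). The 6 B cell genes summed to 947 to 976 normalized reads in WT against 1715 to 1746 in the knockout (3 higher). The 3 eosinophil genes summed to 12167 to 15132 normalized reads in WT against 18451 to 20303 in the knockout (2 higher). The 6 neutrophil genes summed to 9537 to 10521 normalized reads in WT against 7125 to 7612 in the knockout (2 higher, 3 lower). The 4 monocyte and macrophage genes summed to 784 to 922 normalized reads in WT against 638 to 704 in the knockout (1 lower). The 4 T cell genes summed to 35.0 to 45.4 normalized reads in WT against 26.0 to 59.8 in the knockout (none called). The 4 platelet genes summed to 315 to 393 normalized reads in WT against 438 to 705 in the knockout (1 higher, with Gp1bb at 0 in every library). The 4 stroma genes summed to 141 to 191 normalized reads in WT against 322 to 407 in the knockout (2 higher).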

How the data were processed

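Ribo-seq footprints were read in 3 WT and 3 Mov10 KO libraries of irradiated Lin-c-Kit+ cells, made with cycloheximide, RNase I, a sucrose cushion and PCR, with no molecular identifiers named, per the labels' protocols. The authors deposited signal values, which are read counts over 1 size factor per library: in all but 5 of 28136 genes with reads, dividing by 1 number per library gave whole reads (within 0.05). The log2 fold changes and p-values in the deposited table are the authors' own, by a test that is not stated. The build is GRCm39, per the submitters' processing notes, with aligner, counting rules and strand use not given in the sources used here. The 4 other rows off their own step are Rps29, Camp, Igkc and Ssr4, and no column of another sample was present.

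Recovered reads per library are given in the report, and floors of 3 reads cover counting error only. Values were tested with limma 3.58.1 (R 4.3.3) on log2(value + 1), genotype as the only term, with a variance trend, and Benjamini-Hochberg adjustment over 17114 genes with a mean of at least 1, and all adjusted p-values are from limma unless another tool is named. The 5 rows off their step were left out, although the plan had Rpl27 as headed in the fit, and Rpl27 was fitted with these rows in both readings. Alternatives were a pseudocount of 0.1, no filter or a mean of at least 50, TMM, upper-quartile or library-total scaling, edgeR 4.0.16 quasi-likelihood, DESeq2 1.42.0 and limma-voom on recovered reads, no variance trend, robust empirical Bayes, thinning to equal depth, a replicate block, each library left out in turn and sums with named pseudogenes. Shares and pairs were compared as described, pairs by exact two-sided permutation of the libraries (20 regroupings). Levels per kb use the table's gene length, in place of the planned codons. Tables and figures were made with pandas 2.3.3, numpy 2.4.6 and matplotlib 3.10.9 in Python 3.11.15. The fit was checked on simulated reads with equal dispersion in both genotypes, which does not cover the wider spread among the knockout libraries.

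The genes, lists and tests were chosen with earlier results of these data known. The rule named every called or untested large subunit gene, the stalk and 5S genes, the paralogs, the extremes per length and, per list, the rarer direction and the 4 smallest p. Rpl3, Rpl6, Rpl7a, Rpl10, Rpl10a, Rpl15, Rpl19, Rpl21, Rpl22, Rpl23, Rpl24, Rpl35, Rpl36a, Rpl37a, Rpl41, Rptor, Larp1, Mtor, Eif4ebp1, Mdm2 and Trp53 were named after their values were seen. Some genes meeting this rule were counted and are not reported here.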

Additional observations from a re-analysis of the deposited data

How the results depend on the processing

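The median log2 fold change of the large subunit genes was -0.68, and it was -0.76 with TMM scaling, -0.87 with a pseudocount of 0.1, -0.89 with library totals and -0.49 with upper-quartile scaling. The median of all genes, -0.17 in the reported fit, was -0.25, -0.31, -0.37 and -0.00073 in these settings. With each library left out in turn the median ran from -0.78 to -0.63, the higher genes from 2 to 7 and the lower genes from 10 to 19, with the lowest counts without WT replicate 2 or 3. In the following settings the shares of all genes moved too. edgeR called 7 large subunit genes higher and 17 lower (16.5% and 13% of all genes it tested). DESeq2 called 6 and 18 (12.4% and 9.55%), limma-voom 8 and 22 (18.3% and 15.6%), and limma without a variance trend 4 and 12 (6.97% and 8.64%). Library totals gave 4 and 21 (7.48% and 16.7%) and upper-quartile scaling 8 and 15 (13.2% and 7.86%). The sign turned, in genes that were not called, for Rpl3 with upper-quartile scaling (0.028), and it was not the same with every library left out for Rpl3 (-0.40 to 0.0038), Rpl10a (-0.70 to 0.0743) and Rpl3l (-1.02 to 0.36). Rpl27 was -0.99 with the genotypes of its row exchanged, by construction. Over all values of named genes but Rpl27 under these settings, 1309 kept direction and side of the threshold, 118 lost a call and 42 gained one, and the 7 that turned in sign are those just given for Rpl3, Rpl10a and Rpl3l. The causes were not tested. With the replicate number as a block 5 genes were higher and 20 lower (9.31% and 9.65% of all genes). With this block Rpl5, Rpl10, Rpl19 and Rpl37a were called (adjusted p = 0.0180, 0.0444, 0.0128 and 0.0432), and Rpl13a, Rpl34 and Rpl36al lost their calls (0.0679, 0.0637 and 0.105), as did Cdkn1a and Rps18 (0.0794 and 0.0692). Deviations from the genotype means were nearly uncorrelated between libraries with the same number (0.0119, 0.0128 and -0.0062), so no pairing by number was seen. Counting noise lowers such correlations, so they cannot settle whether the number pairs the libraries. Depth limits Rpl36 and Rpl13a, which had at most 6 reads in a knockout library.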
